A study of Arabidopsis thaliana with 24 samples.

Results

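Transcripts of 38 nuclear genes of plastid pigment biosynthesis were followed through 24 RNA-seq libraries of Arabidopsis thaliana seedlings. The genes were listed by their TAIR locus, with no threshold on a measured value, and all 38 were found among the 32833 loci of each count table. They comprise 27 tetrapyrrole and chlorophyll genes, which run in pathway order to the regulator FLU, and 11 carotenoid genes, which run from PSY to VDE. Of the 38, 38 passed the low-count filter at 1 h and 37 at 3 h, where GUN4 had too few reads to be tested.

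Whole seedlings of the Col-0 ecotype, 4 days old, were compared in 8 groups of 3 libraries: agb1 with NAE 18:3, wild type (WT) with NAE 18:3, agb1 with DMSO and WT with DMSO, each after 1 h and after 3 h. The mutated gene, AGB1, codes for the G protein beta subunit, part of a membrane switch that relays signals from the cell surface, and which allele was used is not stated. NAE 18:3, or N-linolenoylethanolamine, is a lipid signal of the N-acylethanolamine family and was given at 40 µM, and DMSO is its solvent. All groups were grown the same way, in shaken flasks of liquid medium with sucrose, and nothing in the labels says that the replicates came from separate cultures, so p-values measure only the spread between these libraries, which may be technical.

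Chlorophyll and heme share one plastid pathway, in which 5-aminolevulinic acid (ALA) is made from glutamate, assembled into protoporphyrin IX, and sent towards chlorophyll when magnesium is inserted or towards heme when iron is inserted. ALA formation and magnesium insertion are the known points of control, because free chlorophyll precursors are phototoxic. Carotenoids are built from phytoene in the same organelle, serve as light-harvesting and protective pigments, and are the source of abscisic acid.

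Levels are in CPM, the counts-per-million scale, adjusted by TMM over all 24 libraries, and differences are given as log2 fold changes ± standard error (SE). A gene was called where edgeR's quasi-likelihood test gave a Benjamini-Hochberg adjusted p under 0.05 over all genes tested, and only called genes are said to rise or fall. Library totals were 18.0 M to 61.9 M counts at 1 h and 20.0 M to 51.9 M counts at 3 h (M, mega), where the agb1 libraries (36.0 M to 51.9 M) were deeper than the WT libraries (20.0 M to 25.8 M). AGB1 itself had 39.4 to 47.9 CPM in agb1 against 47.7 to 52.4 CPM in WT under DMSO at 1 h, which was not a called difference (log2 -0.16 ± 0.09, edgeR adjusted p = 0.245). At 3 h under DMSO it had 24 to 33.7 CPM in agb1 against 51.0 to 52.4 CPM in WT (log2 -0.88 ± 0.12, edgeR adjusted p = 0.000231). Since the allele is not named, the count of AGB1 reads does not check the genotype labels. As a measure of tissue, 5 markers of green tissue summed to 14421 to 15908 CPM in agb1 with NAE, 22062 to 27109 CPM in WT with NAE, 12851 to 14891 CPM in agb1 with DMSO and 23133 to 29283 CPM in WT with DMSO at 3 h. In whole seedlings, fewer cells of a type and less RNA per cell cannot be told apart.

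Per kilobase of exon, the most abundant members in WT with DMSO at 3 h were CRD1 (567 CPM per kb), CHLP (441 CPM per kb), CHLI1 (394 CPM per kb) and PORB (366 CPM per kb). The same 4 genes held the top ranks at 1 h, where PORB was first with 480 CPM per kb. The lowest ranks were held by BCH2 (5.33 CPM per kb), PORA (0.490 CPM per kb) and GUN4 at 3 h. GUN4, an activator of magnesium chelatase, had 0 to 32 raw counts per library, and 73.0% of its exon bases are overlapped by the opposite-strand locus AT3G59410, so its count was not read as a level. PORA had 6 to 232 counts per library, and every other member had at least 112. For 17 members some exon bases are overlapped by an opposite-strand locus, over 1.23% to 18.1% of their exon length apart from GUN4. The strand setting of the counting is not given in the sources used here, so reads of such pairs, and reads shared by near-identical paralogs, cannot be assigned with certainty.

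After 1 h of NAE 18:3, HEMA2 was the one member that changed, and it rose in both genotypes. Glutamyl-tRNA reductase makes the first committed intermediate of ALA, and HEMA2 (AT1G09940, chromosome 1, 3236908 to 3239554, minus strand on RefSeq TAIR10.1) encodes its minor isoform, known for expression in roots and under stress. At 1 h HEMA2 had 82.0, 89.0 and 82.4 CPM in agb1 with NAE against 44.4, 46.7 and 39.1 CPM in agb1 with DMSO. It had 82.6, 90.5 and 77.5 CPM in WT with NAE against 41.5, 37.1 and 42.5 CPM in WT with DMSO. The NAE and DMSO libraries did not overlap in either genotype, and the increases were 0.98 ± 0.09 in agb1 and 1.08 ± 0.09 in WT on the log2 scale (edgeR adjusted p = 2.15e-06 and 6.44e-07). In all, 1 of 38 members was called in agb1, where 13.8% of all genes were called (8.89% higher and 4.92% lower), and 1 of 38 in WT, where 20.5% of all genes were called (12.4% higher and 8.02% lower). The median member moved by 0.02 in agb1 and -0.03 in WT, against -0.002 and -0.02 for all genes (log2). No member's NAE effect was called as different between the genotypes at 1 h. By edgeR 0 of 38 were called, where 0.0753% of all genes were called (0% higher and 0.0753% lower). By the same test 0 members had an unadjusted p under 0.05, and DESeq2 also called 0. So few calls over all genes leave smaller differences undecided.

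Other key enzymes had no called NAE effect at 1 h. HEMA1 had 171, 167 and 150 CPM in agb1 with NAE, 171, 168 and 186 CPM in WT with NAE, 163, 151 and 167 CPM in agb1 with DMSO and 175, 152 and 181 CPM in WT with DMSO. CHLH had 819, 751 and 588 CPM in agb1 with NAE, 624, 728 and 901 CPM in WT with NAE, 765, 660.3 and 706 CPM in agb1 with DMSO and 606, 561 and 722 CPM in WT with DMSO. For CHLH the ranges of the 4 groups overlapped, and for HEMA1 they did except that every library of WT with NAE lay above those of agb1 with DMSO. PORB had 905, 880.0 and 685 CPM in agb1 with NAE, 630.3, 652 and 688 CPM in WT with NAE, 870.0, 907 and 848 CPM in agb1 with DMSO and 833, 716 and 811 CPM in WT with DMSO. PORC had 113, 106 and 93.5 CPM in agb1 with NAE, 109.7, 105 and 124 CPM in WT with NAE, 109, 106 and 109.9 CPM in agb1 with DMSO and 134, 112 and 128 CPM in WT with DMSO. In WT, the highest library of each of these reductases was one with DMSO. For PORB every WT library with NAE lay below every WT library with DMSO, without a call, while for PORC these ranges overlapped. PSY had 257, 236 and 269 CPM in agb1 with DMSO and 331, 276 and 319 CPM in WT with DMSO, and VDE had 53.2, 48.9 and 42.6 CPM in agb1 with NAE and 56.2, 51.1 and 62.1 CPM in WT with NAE.

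**Figure D1:**
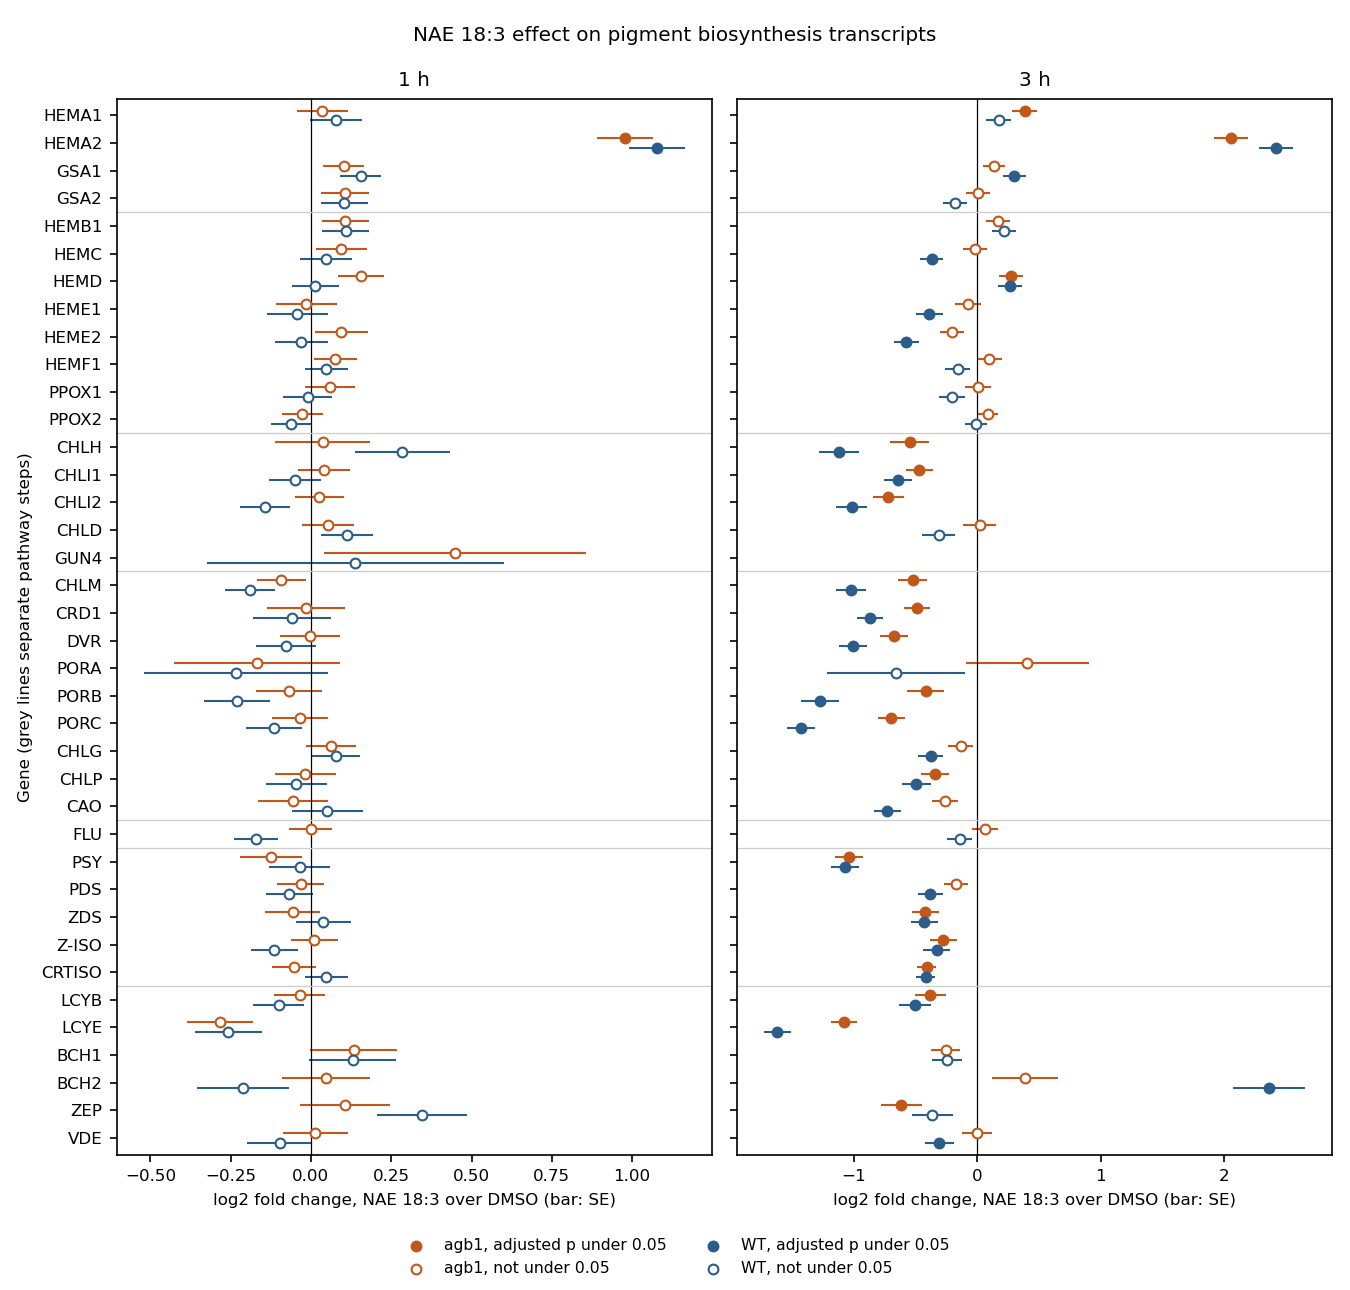
Log2 fold change of NAE 18:3 over DMSO for each gene, with bars of 1 SE, in agb1 (orange, upper point of each row) and WT (blue, lower point) at 1 h and 3 h, where filled points have an edgeR adjusted p under 0.05 and the x axes differ in range. At 1 h HEMA2 alone is filled, while at 3 h most genes from CHLH to LCYE lie left of 0 and HEMA2 and, in WT, BCH2 lie far to the right.

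After 3 h the picture was broad. In agb1, 16 of 37 members (43.2%) fell and 3 rose, where 50.5% of all genes were called (24.5% higher and 26% lower). In WT, 22 of 37 members (59.5%) fell and 4 rose, where 58.5% of all genes were called (29.4% higher and 29.1% lower). The median member changed by -0.20 in agb1 and -0.38 in WT on the log2 scale, against medians of -0.03 and -0.003 for all genes. Falls in both genotypes were shared by 15 members. CAO, CHLG, HEMC, HEME1, HEME2, PDS and VDE passed the test for a fall in WT and not in agb1, and ZEP passed it in agb1 and not in WT. By edgeR the difference between genotypes itself was called for none of these 8 genes, and DESeq2 called it for HEMC (log2 0.37, adjusted p = 0.0300). In simulated data with few changed genes, drawn whatever their counts, 8.96% of 1.5-fold differences of this kind were recovered. That rate is not the members' own, and missing calls leave small differences undecided. With a filter at a mean of 5 CPM or with the 6 compared libraries alone, CAO also passed in agb1 (edgeR adjusted p = 0.0393 and 0.0439) and ZEP also passed in WT (edgeR adjusted p = 0.0383 and 0.0446). Of the 5 green tissue markers, 3 fell and 1 rose in agb1, and 3 fell in WT, and of 10 tested root markers 3 rose and 2 fell in agb1, and 4 rose and 2 fell in WT. The sum of the 12 root markers was nonetheless lower with NAE in both genotypes. It was 2434 to 2614 CPM in agb1 with NAE against 2920 to 3867 CPM in agb1 with DMSO. In WT it was 2098 to 3051 CPM with NAE against 4565 to 5149 CPM with DMSO. The part of these tissue markers in the pigment gene values was not tested. The dependence of a library's counts on exon length also moved with NAE at 3 h. Across genes, Spearman's correlation of exon length with a library's log2 deviation from the mean of the 12 libraries was -0.157 to -0.0759 in agb1 with NAE against 0.0424 to 0.0872 in agb1 with DMSO, and -0.202 to 0.00136 in WT with NAE against 0.059 to 0.121 in WT with DMSO. These ranges did not overlap in either genotype. With an exon length offset in the edgeR fit, 14 members fell and 3 rose in agb1, and 21 fell and 5 rose in WT. Under that offset CHLP (adjusted p = 0.05003) and Z-ISO (adjusted p = 0.0971) were no longer called in agb1, VDE (adjusted p = 0.141) was no longer called in WT, and HEMB1 was called higher in WT (adjusted p = 0.0339).

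The counts by pathway step that follow stand beside 24.5% higher and 26% lower of all genes in agb1. In WT they stand beside 29.4% higher and 29.1% lower. At the entry to the pathway, 2 of the 4 genes of ALA synthesis rose in each genotype and none fell. HEMA2 reached 230, 248 and 261 CPM in agb1 with NAE against 53.4, 49.4 and 74.9 CPM in agb1 with DMSO. In WT it reached 345, 379 and 348 CPM with NAE against 68.3, 65.4 and 67.1 CPM with DMSO. Every NAE library lay above every DMSO library, with increases of 2.06 ± 0.14 in agb1 and 2.42 ± 0.14 in WT on the log2 scale (edgeR adjusted p = 5.42e-08 and 1.00e-08). The main isoform, HEMA1 (AT1G58290), had 161, 154 and 146 CPM in agb1 with NAE against 129, 110 and 114 CPM in agb1 with DMSO, a rise of 0.38 ± 0.10 (log2, edgeR adjusted p = 0.00554). HEMA1 had 205, 221 and 204 CPM in WT with NAE against 171, 186 and 202 CPM in WT with DMSO, where the change of 0.17 ± 0.10 was not called (edgeR adjusted p = 0.149). Among the aminotransferases that complete ALA synthesis, GSA1 rose in WT by 0.30 ± 0.09 (edgeR adjusted p = 0.0123), and this call was lost without WT DMSO replicate 1 (adjusted p = 0.0990) or replicate 2 (adjusted p = 0.0663). GSA2 was not called in either genotype (log2 0.01 ± 0.10 in agb1 and -0.18 ± 0.10 in WT), except as lower in WT with a filter at a mean of 5 CPM (edgeR adjusted p = 0.0268).

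The balance of the reductase isoforms shifted with these values. Per kilobase, HEMA2 made up 62.7 ± 2.60% of HEMA1 plus HEMA2 in agb1 with NAE, 64.1 ± 0.255% in WT with NAE, 34.4 ± 5.60% in agb1 with DMSO and 27.4 ± 1.90% in WT with DMSO at 3 h (SD, n = 3 each). At 1 h the same shares were 35.3 ± 1.62%, 33.4 ± 2.84%, 22.1 ± 2.40% and 20.0 ± 0.305% in that order of groups. The summed level of the 4 genes of ALA synthesis at 3 h was 753 to 768 CPM in agb1 with NAE against 514 to 528 CPM in agb1 with DMSO, and 954 to 963 CPM in WT with NAE against 589 to 662 CPM in WT with DMSO.

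**Figure D2:**
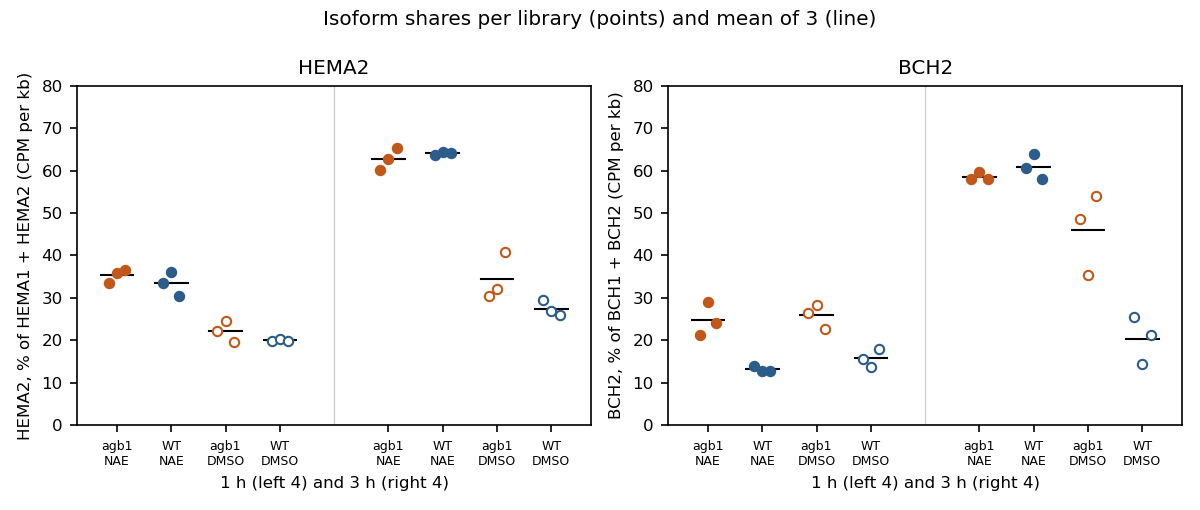
Share of HEMA2 in HEMA1 plus HEMA2 (left) and of BCH2 in BCH1 plus BCH2 (right), in percent of CPM per kb, for each library (points, filled for NAE 18:3 and open for DMSO, orange for agb1 and blue for WT) with the mean of 3 as a line. At 3 h HEMA2 makes up 60.1% to 65.3% in the NAE libraries and 25.9% to 40.8% in the DMSO libraries, whereas BCH2 is high in the NAE libraries and, among DMSO libraries, higher in agb1 than in WT.

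Of the 8 genes that take ALA to protoporphyrin IX, 1 rose and none fell in agb1, and 1 rose and 3 fell in WT. In both genotypes this was fewer than the share of all genes called (50.5% in agb1 and 58.5% in WT). HEMD, uroporphyrinogen III synthase, rose by 0.28 ± 0.10 in agb1 and 0.26 ± 0.10 in WT (edgeR adjusted p = 0.0293 and 0.0335). Those calls were lost in 5 omissions of a single library for agb1 (adjusted p 0.0529 to 0.101) and in 7 for WT (adjusted p 0.0706 to 0.236). The WT call was also lost with RLE scaling, without the low-count filter, with a filter at a mean of 5 CPM, and with the 6 compared libraries alone. In these fits the edgeR adjusted p was 0.0527 to 0.123. HEMC, porphobilinogen deaminase, fell in WT by 0.37 ± 0.09, and the decarboxylases HEME1 and HEME2 fell in WT by 0.39 ± 0.11 and 0.57 ± 0.10 (edgeR adjusted p = 0.00399, 0.00677 and 0.000207). HEMB1, HEMF1, PPOX1 and PPOX2, the ALA dehydratase, the coproporphyrinogen oxidase and both protoporphyrinogen oxidases, were not called in either genotype, except that in WT PPOX1 was called lower with a filter at a mean of 5 CPM (edgeR adjusted p = 0.0279) and HEMB1 higher with the exon length offset. The median of the 8 genes was 0.04 in agb1 and -0.18 in WT (log2).

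Of the 4 tested magnesium chelatase genes, 3 fell in each genotype. The chelatase inserts magnesium into protoporphyrin IX, and its large subunit CHLH (AT5G13630) is also known as GUN5. CHLH had 425, 357 and 367 CPM in agb1 with NAE against 578, 547 and 552 CPM in agb1 with DMSO. In WT it had 591, 572 and 386 CPM with NAE against 933, 1177 and 1263 CPM with DMSO. All NAE libraries lay below the DMSO libraries of their genotype, and the changes were -0.55 ± 0.16 in agb1 and -1.12 ± 0.16 in WT (log2, edgeR adjusted p = 0.0114 and 4.40e-05). The ATPase subunits fell as well. CHLI1 changed by -0.47 ± 0.11 in agb1 and -0.64 ± 0.11 in WT, and CHLI2, its minor paralog, had 33.8, 27.2 and 32.9 CPM in agb1 with NAE against 45.2, 60.2 and 49.1 CPM in agb1 with DMSO. CHLI2 changed by -0.72 ± 0.12 in agb1 and -1.02 ± 0.13 in WT (log2, edgeR adjusted p = 0.000283 and 1.14e-05). CHLD, the subunit that bridges the others, was not called by edgeR (log2 0.02 ± 0.13 in agb1 and -0.31 ± 0.13 in WT), but in WT it was called lower by DESeq2 (adjusted p = 0.0398) and with a filter at a mean of 5 CPM (edgeR adjusted p = 0.0183).

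Of the 9 genes from magnesium protoporphyrin to chlorophyll, 6 fell in agb1 and 8 fell in WT, and the median changes were -0.42 and -0.87 (log2). CHLM, which methylates magnesium protoporphyrin, had 77.8, 79.6 and 71.8 CPM in agb1 with NAE against 119, 107 and 103 CPM in agb1 with DMSO. In WT it had 85.0, 72.0 and 90.3 CPM with NAE against 144, 171 and 190 CPM with DMSO. CRD1, the cyclase subunit that closes the fifth ring, had 409, 389 and 343 CPM in agb1 with NAE against 575, 542 and 486 CPM in agb1 with DMSO. In WT CRD1 had 483, 463 and 445 CPM with NAE against 816, 848 and 876 CPM with DMSO. For both genes no NAE library reached the DMSO range of its genotype.

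CHLM fell by 0.52 ± 0.12 in agb1 and 1.02 ± 0.12 in WT, and CRD1 fell by 0.49 ± 0.10 in agb1 and 0.87 ± 0.11 in WT (log2, all 4 with an edgeR adjusted p of 0.00232 or less). DVR, the divinyl reductase, had 47.8, 43.4 and 48.1 CPM in agb1 with NAE against 71.0, 87.6 and 63.5 CPM in agb1 with DMSO, and 49.6, 47.1 and 43.6 CPM in WT with NAE against 93.6, 95.9 and 92.8 CPM in WT with DMSO. It changed by -0.67 ± 0.11 in agb1 and -1.01 ± 0.11 in WT (log2, edgeR adjusted p = 0.000225 and 4.81e-06). CAO, which makes chlorophyll b, and CHLG, the chlorophyll synthase, changed by -0.26 and -0.13 in agb1 without a call and fell by 0.73 ± 0.11 and 0.38 ± 0.10 in WT. CHLP, the geranylgeranyl reductase that supplies the phytyl tail, had 566, 450 and 456 CPM in agb1 with NAE against 664, 627 and 573 CPM in agb1 with DMSO, and 645, 683 and 632 CPM in WT with NAE against 858, 933 and 973 CPM in WT with DMSO. CHLP fell by 0.34 ± 0.11 in agb1 and 0.49 ± 0.11 in WT (log2, edgeR adjusted p = 0.0238 and 0.00217), and the agb1 call was lost if agb1 DMSO replicate 1 or 2, or else replicate 2 or 3 of agb1 with NAE, was left out (adjusted p 0.0534 to 0.113).

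The light-dependent protochlorophyllide oxidoreductases gave 2 of the 3 members whose NAE effect differed between genotypes. PORB (AT4G27440), the main isoform in these seedlings, had 329, 284 and 247 CPM in agb1 with NAE against 397, 442 and 310 CPM in agb1 with DMSO. In WT PORB had 260, 210 and 274 CPM with NAE against 548, 632 and 623 CPM with DMSO. The NAE and DMSO libraries overlapped in agb1 and stood far apart in WT. The changes were -0.42 ± 0.15 in agb1 and -1.28 ± 0.15 in WT (log2, edgeR adjusted p = 0.0327 and 8.03e-06), and the agb1 call was lost if agb1 DMSO replicate 1 or 2, or else replicate 2 or 3 of agb1 with NAE, was left out (adjusted p 0.0821 to 0.139).

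PORC (AT1G03630), the isoform known to be induced by light, had 49.6, 40.0 and 42.5 CPM in agb1 with NAE against 69.9, 81.2 and 62.9 CPM in agb1 with DMSO. In WT PORC had 44.5, 41.9 and 43.7 CPM with NAE against 110, 124 and 117 CPM with DMSO. After NAE the libraries of both genotypes lay within the same range, while under DMSO every agb1 library lay below every WT library. The changes were -0.70 ± 0.11 in agb1 and -1.43 ± 0.11 in WT (log2, edgeR adjusted p = 0.000149 and 1.67e-07). PORA, the isoform typical of dark-grown seedlings, had 0.446 to 1.16 CPM in agb1 with NAE, 0.446 to 0.617 CPM in WT with NAE, 0.494 to 0.610 CPM in agb1 with DMSO and 0.236 to 1.22 CPM in WT with DMSO, and was not called in any comparison at 3 h. FLU, which restrains ALA formation in the dark, was also not called (log2 0.06 ± 0.10 in agb1 and -0.14 ± 0.10 in WT).

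**Figure D3:**
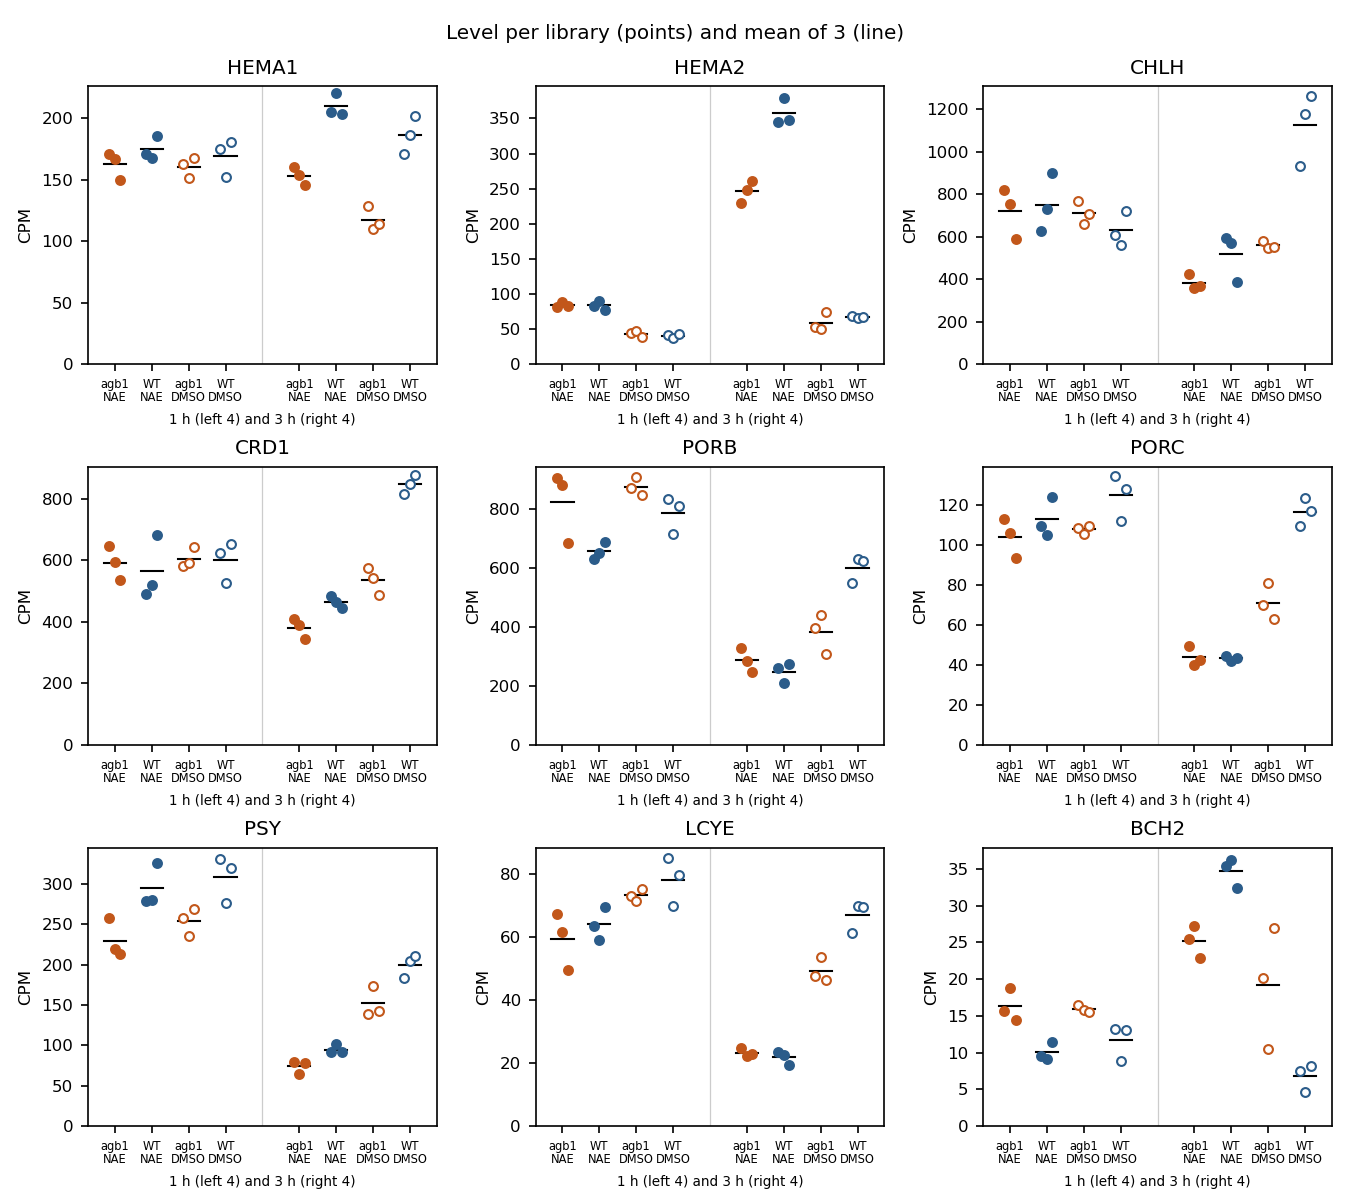
Level in CPM of 9 genes in each library at 1 h (left 4 groups) and 3 h (right 4 groups), with points filled for NAE 18:3 and open for DMSO, orange for agb1 and blue for WT, and the mean of 3 as a line. At 3 h CHLH, CRD1, PORB, PORC, PSY and LCYE are highest in WT with DMSO, HEMA2 is high in the NAE libraries, and BCH2 is lowest in WT with DMSO.

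Of the 5 carotenoid genes from phytoene to lycopene, 4 fell in agb1 and 5 in WT. Phytoene synthase, PSY (AT5G17230), is the entry enzyme, and it had 79.3, 64.6 and 77.7 CPM in agb1 with NAE against 139, 173 and 143 CPM in agb1 with DMSO. In WT it had 91.6, 101 and 91.4 CPM with NAE against 184, 204 and 211 CPM with DMSO. These ranges did not overlap, and the changes of -1.04 ± 0.11 in agb1 and -1.07 ± 0.12 in WT (log2, edgeR adjusted p = 5.56e-06 and 2.96e-06) differed by 0.03 ± 0.16. The opposite-strand locus AT5G17220, which overlaps 4.305% of the PSY exon bases, also fell (log2 -2.03 in agb1 and -3.32 in WT), and its part in the PSY value was not tested. Of the desaturases and isomerases, ZDS, Z-ISO and CRTISO fell in both genotypes, and PDS fell in WT.

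CRTISO, the carotenoid isomerase, had 39.8, 39.2 and 41.9 CPM in agb1 with NAE against 52.9, 53.2 and 54.6 CPM in agb1 with DMSO, and it changed by -0.41 ± 0.08 in agb1 and -0.42 ± 0.08 in WT (log2, edgeR adjusted p = 0.000550 and 0.000386). ZDS changed by -0.42 ± 0.11 in agb1 and -0.43 ± 0.11 in WT, and PDS by -0.17 ± 0.10 in agb1 without a call and -0.38 ± 0.10 in WT. Z-ISO changed by -0.27 ± 0.11 in agb1 and -0.33 ± 0.11 in WT. Its agb1 call (edgeR adjusted p = 0.0498) was kept in 5 of 20 alternative fits, and its WT call (adjusted p = 0.0195) was lost without WT NAE replicate 3 (adjusted p = 0.0703).

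At the branch point after lycopene the epsilon cyclase moved more than the beta cyclase. LCYE (AT5G57030), which directs lycopene towards lutein, had 24.9, 22.1 and 22.8 CPM in agb1 with NAE against 47.6, 53.8 and 46.5 CPM in agb1 with DMSO. In WT LCYE had 23.6, 22.6 and 19.3 CPM with NAE against 61.5, 70.1 and 69.5 CPM with DMSO. Every NAE library lay far below the DMSO libraries of its genotype, and the changes were -1.08 ± 0.10 in agb1 and -1.62 ± 0.11 in WT (log2, edgeR adjusted p = 1.63e-06 and 3.43e-08). LCYB, the beta cyclase, fell by 0.38 ± 0.12 in agb1 and 0.50 ± 0.13 in WT (edgeR adjusted p = 0.0205 and 0.00350). The agb1 call of LCYB was lost if agb1 DMSO replicate 1 or 3, or else replicate 2 or 3 of agb1 with NAE, was left out (adjusted p 0.0583 to 0.0920). Opposite-strand loci overlap 18.13% of the LCYB exon bases. Among them AT3G10220 changed by -0.30 in agb1 and 0.19 in WT (log2), both without a call, and its part in the LCYB value was not tested.

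Of the beta-carotene hydroxylases, which start the way to zeaxanthin, BCH2 rose in WT. BCH1 was not called in either genotype at 3 h (log2 -0.26 ± 0.12 in agb1 and -0.24 ± 0.12 in WT), except as lower in WT with a filter at a mean of 5 CPM (edgeR adjusted p = 0.0365). BCH2 (AT5G52570, chromosome 5) had 25.4, 27.2 and 22.9 CPM in agb1 with NAE against 20.2, 10.5 and 27 CPM in agb1 with DMSO. In WT BCH2 had 35.4, 36.3 and 32.4 CPM with NAE against 7.54, 4.60 and 8.14 CPM with DMSO. The agb1 groups overlapped, and the agb1 DMSO libraries were the most scattered, whereas the WT groups stood well apart. The changes were 0.39 ± 0.27 in agb1, which was not called, and 2.36 ± 0.29 in WT (log2, edgeR adjusted p = 0.245 and 1.51e-05). BCH2 made up 58.6 ± 0.956% of BCH1 plus BCH2 per kilobase in agb1 with NAE, 60.8 ± 2.90% in WT with NAE, 46.0 ± 9.56% in agb1 with DMSO and 20.4 ± 5.59% in WT with DMSO (SD, n = 3 each).

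The xanthophyll cycle, in which violaxanthin and zeaxanthin are turned into each other as light changes, is run by the epoxidase ZEP and the de-epoxidase VDE. ZEP had 43.8, 52.5 and 46.2 CPM in agb1 with NAE, 81.5, 69.6 and 67.7 CPM in WT with NAE, 84.6, 56.4 and 77.4 CPM in agb1 with DMSO and 80.8, 83.8 and 118 CPM in WT with DMSO. It fell by 0.62 ± 0.17 in agb1 (log2, edgeR adjusted p = 0.00743, or 0.0572 without agb1 DMSO replicate 1) and was not called in WT (log2 -0.36 ± 0.17). VDE had 72.7, 69.7 and 69.2 CPM in agb1 with NAE, 87.0, 89.6 and 76.9 CPM in WT with NAE, 77.5, 62.1 and 72.3 CPM in agb1 with DMSO and 92.0, 100 and 122 CPM in WT with DMSO. VDE changed by -0.31 ± 0.12 in WT, and this call (edgeR adjusted p = 0.0392) was lost in 6 omissions of a single library, with adjusted p of 0.0524 to 0.193, and in 9 of the 20 alternative fits in all. The opposite-strand locus AT1G08560 overlaps 17.96% of the VDE exon bases. That locus changed by -0.95 in WT (log2, edgeR adjusted p = 0.000698) and by -0.25 in agb1 without a call. Its part in the VDE value was not tested.

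The difference between the NAE effects in agb1 and in WT at 3 h was called for 3 of 37 members, 2 higher and 1 lower, where 2.97% of all genes were called (1.32% higher and 1.65% lower). The difference was positive in 31 of 37 members (83.8%), against 47.5% of all genes, and its median was 0.21 against -0.02 (log2). It was 0.86 ± 0.21 for PORB, 0.73 ± 0.16 for PORC and -1.97 ± 0.39 for BCH2 (log2, edgeR adjusted p = 0.0479, 0.0273 and 0.0216). Under DESeq2 5 members were called, with LCYE (0.56, adjusted p = 0.0154) and HEMC (0.37, adjusted p = 0.0300) besides these 3. Leaving out 1 library at a time, the difference stayed between 0.75 and 1.02 for PORB, between 0.64 and 0.88 for PORC and between -2.22 and -1.58 for BCH2, while the calls varied. The PORB call was lost in 9 of these 12 fits, PORC in 4 and BCH2 in 3. None of the 3 was called without WT DMSO replicate 2 (adjusted p = 0.107, 0.0602 and 0.0695 in the same order of genes) or without agb1 NAE replicate 1 (adjusted p = 0.139, 0.0876 and 0.0622), and 1 was called without WT NAE replicate 1, WT NAE replicate 2 or agb1 NAE replicate 2. Without agb1 DMSO replicate 2, 5 members were called. The opposite-strand neighbour of PORB, AT4G27450, overlaps 4.33% of its exon bases and changed the other way in WT (log2 1.82, edgeR adjusted p = 9.20e-05), and its part in the PORB value was not tested.

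In that test the WT DMSO libraries stand on one side of several comparisons, so the values are best read side by side. PORC averaged 44.0 CPM in agb1 with NAE, 43.4 CPM in WT with NAE, 71.3 CPM in agb1 with DMSO and 117 CPM in WT with DMSO at 3 h. CHLH averaged 383 CPM in agb1 with NAE, 517 CPM in WT with NAE, 559 CPM in agb1 with DMSO and 1124 CPM in WT with DMSO. For both genes WT with DMSO stood alone at the top, and for BCH2 it stood alone at the bottom.

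Without NAE, agb1 seedlings at 3 h had lower pigment transcripts than WT seedlings. Under DMSO 18 of 37 members (48.6%) were lower in agb1 and 1, BCH2, was higher, where 19% of all genes were called (7.84% higher and 11.1% lower). The median member differed by -0.37 (log2), against 0.02 for all genes. The lower members included 8 of the 9 genes from magnesium protoporphyrin to chlorophyll, 3 of 5 genes from phytoene to lycopene, and 1 of 4 genes of ALA synthesis. CHLH differed most among them (log2 -1.01 ± 0.16, edgeR adjusted p = 0.000797), followed by PORC (-0.72 ± 0.11), CRD1 (-0.67 ± 0.11) and HEMA1 (-0.67 ± 0.10). BCH2 was higher by 1.5 ± 0.29 (edgeR adjusted p = 0.00319).

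CAO had 51.9, 45.2 and 48.8 CPM in agb1 against 64.6, 70.9 and 81.0 CPM in WT under DMSO at 3 h (log2 -0.57 ± 0.11, edgeR adjusted p = 0.00220). The calls of CHLD and DVR were each lost in 10 omissions of a single library (adjusted p up to 0.173 and 0.0873), and those of PSY in 4 and of CHLG in 3 (adjusted p up to 0.0851 and 0.0750). All 5 green tissue markers were also lower in agb1 under DMSO, with a median of -0.91 (log2), as the summed levels given above show. Of 10 tested root markers 1 was higher and 1 lower, IRT1 was at 0 in all 4 groups, and their sums were 2920 to 3867 CPM in agb1 with DMSO against 4565 to 5149 CPM in WT with DMSO. The part of these marker levels in the genotype difference was not tested.

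**Figure D4:**
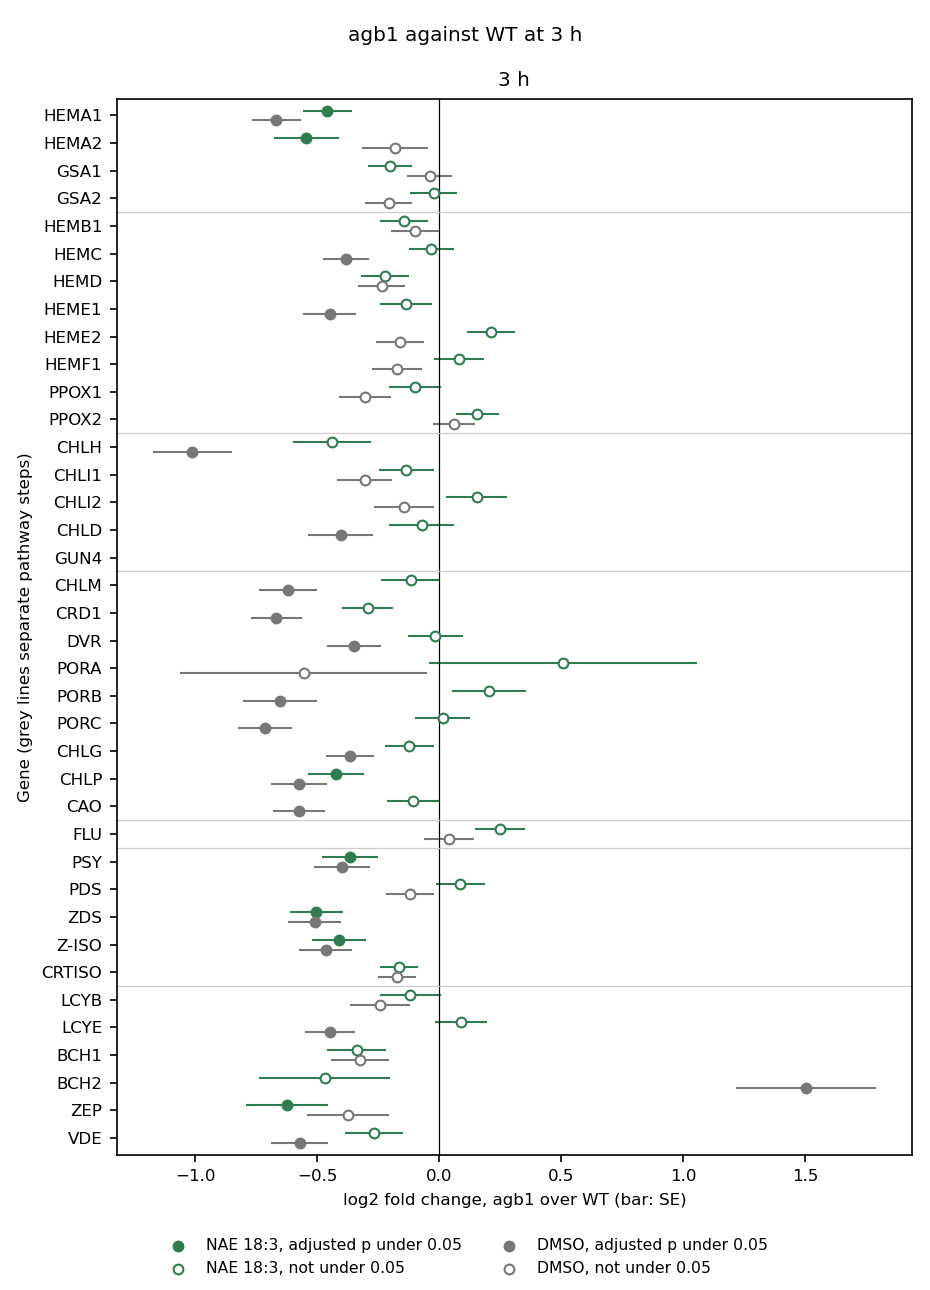
Log2 fold change of agb1 over WT at 3 h for each gene, with bars of 1 SE, with NAE 18:3 (green, upper point of each row) and with DMSO (grey, lower point); filled points have an edgeR adjusted p under 0.05, and GUN4 was not tested. Under DMSO most genes from CHLH to VDE lie left of 0 and BCH2 lies far to the right, while with NAE 18:3 most genes lie closer to 0.

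With NAE at 3 h, 7 of 37 members were lower in agb1 and none was higher, where 22.9% of all genes were called (9.24% higher and 13.7% lower). The 7 were HEMA1, HEMA2, CHLP, PSY, ZDS, Z-ISO and ZEP, and 4 of them are carotenoid genes. Alternative fits called further members lower in agb1. CHLH and CRD1 were called by DESeq2 (adjusted p = 0.0375 and 0.0159) and with an exon length offset (edgeR adjusted p = 0.0236 and 0.0467). With the 6 compared libraries alone, CRD1, BCH1 and BCH2 were called (edgeR adjusted p = 0.0446, 0.0345 and 0.00681). ZDS had 88.5, 82.7 and 88.3 CPM in agb1 against 128, 130 and 108 CPM in WT with NAE (log2 -0.50 ± 0.11, edgeR adjusted p = 0.00531). Under DMSO ZDS had 128, 103 and 117 CPM in agb1 against 154, 165 and 175 CPM in WT, a difference of -0.51 ± 0.11. HEMA1 differed by -0.46 ± 0.10 with NAE, and HEMA2 by -0.54 ± 0.13 (edgeR adjusted p = 0.00549 and 0.0110), and the HEMA2 call was lost without agb1 NAE replicate 1 (adjusted p = 0.0537).

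Z-ISO, the isomerase that acts between the desaturases, had 36.6, 30.6 and 33.6 CPM in agb1 against 47.8, 44.7 and 40.9 CPM in WT with NAE. ZEP differed by -0.62 ± 0.17, CHLP by -0.42 ± 0.11 and PSY by -0.37 ± 0.11 with NAE (log2, edgeR adjusted p = 0.0176, 0.0186 and 0.0344). Of these, PSY was lost in 6 omissions of a single library, Z-ISO in 4, and ZEP and CHLP in 3 each, with adjusted p up to 0.154. The count of 7 became 4 if replicate 1 or 2 of WT with NAE, or else of agb1 with NAE, was left out, and 3 without agb1 NAE replicate 3. With NAE, 3 of 5 green tissue markers were lower in agb1.

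At 1 h the genotypes differed at few members. Under DMSO 1 of 38 was higher in agb1 and 4 were lower, where 11.4% of all genes were called (5.63% higher and 5.75% lower). PORA had 3.39, 4.01 and 2.27 CPM in agb1 against 1.39, 1.40 and 1.91 CPM in WT under DMSO, and 3.25, 2.94 and 2.31 CPM in agb1 against 1.12, 0.932 and 1.89 CPM in WT with NAE. The agb1 libraries lay above the WT libraries in both treatments, by 1.03 ± 0.27 under DMSO and 1.10 ± 0.28 with NAE (log2, edgeR adjusted p = 0.0269 and 0.0235). Under DMSO CHLM had 144, 140 and 165 CPM in agb1 against 205, 178 and 198 CPM in WT (log2 -0.36 ± 0.08, edgeR adjusted p = 0.0105). PPOX2 had 42.2, 43.9 and 43.4 CPM in agb1 against 55.3, 47.2 and 49.6 CPM in WT, FLU had 113, 107 and 113 CPM in agb1 against 145, 129 and 122 CPM in WT, and VDE had 48.1, 46.8 and 50.3 CPM in agb1 against 69.6, 53.3 and 61.8 CPM in WT. No agb1 library reached the WT range for any of these genes, and all 3 were called lower (log2 -0.23, -0.24 and -0.34). Under DMSO at 1 h the correlation with exon length, as defined above, was -0.0306 to 0.219 in agb1 and -0.334 to -0.0753 in WT. The ranges did not overlap, so genotype and length trend cannot be told apart here. With an exon length offset FLU was not called (edgeR adjusted p = 0.0717). Under it PSY and LCYB were called lower in agb1 and BCH2 higher (edgeR adjusted p = 0.0420, 0.0496 and 0.0485).

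With NAE at 1 h 2 of 38 members were higher in agb1 and 2 lower, where 8.97% of all genes were called (4.08% higher and 4.89% lower). BCH2 had 15.7, 18.8 and 14.5 CPM in agb1 against 9.52, 9.10 and 11.5 CPM in WT (log2 0.69 ± 0.14, edgeR adjusted p = 0.00779), and this call was kept in every alternative run. PSY had 257, 219 and 213 CPM in agb1 against 279, 280 and 325 CPM in WT (log2 -0.36 ± 0.10), and CHLM differed by -0.27 ± 0.08. Under DMSO at 1 h edgeR without the length offset did not call BCH2, but DESeq2 called it higher in agb1 (log2 0.44, adjusted p = 0.0289). Apart from BCH2 with NAE, the genotype calls at 1 h were fragile. Under DMSO no member was called without agb1 DMSO replicate 2, 1 without agb1 DMSO replicate 1 or WT DMSO replicate 1, and 3 without agb1 DMSO replicate 3, WT DMSO replicate 3 or WT NAE replicate 2. With NAE 1 was called without agb1 NAE replicate 2 or WT NAE replicate 2, and 2 without WT NAE replicate 1 or 3. Leaving out 1 library at a time gave 2 or 3 called members in place of 1 for the NAE effect at 1 h, in agb1 without agb1 NAE replicate 1, and in WT without agb1 NAE replicate 3 or WT DMSO replicate 3.

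Between 1 h and 3 h the NAE effect itself changed for part of the members. The count tables of the time points are separate, so time and table cannot be told apart. In agb1 the effect at 3 h minus that at 1 h was called for 13 of 38 members (34.2%), 2 higher and 11 lower. This was near the share of all genes called, 34.5% (17% higher and 17.5% lower), though 28.9% of members were lower. In WT it was called for 22 of 38 (57.9%), 2 higher and 20 lower (52.6%), where 48% of all genes were called (25.2% higher and 22.8% lower). For CHLH in WT with DMSO the mean was 630 CPM at 1 h and 1124 CPM at 3 h, and in agb1 with DMSO it was 711 CPM at 1 h and 559 CPM at 3 h. For PSY all 4 groups were lower at 3 h than at 1 h, with means in agb1 with NAE of 230 CPM at 1 h and 73.9 CPM at 3 h, and in WT with DMSO of 309 CPM at 1 h and 199 CPM at 3 h. HEMA2 in WT had a difference of 1.37 ± 0.16 and BCH2 in WT one of 2.60 ± 0.35 (log2, edgeR adjusted p = 4.78e-07 and 4.01e-06), and both were kept in 31 of 31 alternative fits.

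Of the upstream regions, a pair with a G-box is shown because it is the motif that HY5 and the PIF factors, known regulators of pigment genes, are known to bind. The letters CACGTG, which read the same on both strands, were searched in the 250 bases before each gene's annotated start in RefSeq TAIR10.1, along with the I-box core GATAAG and the evening element AAATATCT on both strands, and these motifs were chosen after results were known. The G-box was found in 4 of 38 members (10.5%), against 6.49% of 27443 windows genome-wide, the I-box core in 3 (7.89%, against 12.3%), and the evening element in 2 (5.26%, against 4.79%). Those of BCH2 and CAO follow as examples, 5′ to 3′ in the direction of the gene, with the G-box in capitals. Both lie on the minus strand, at chr5:21337127-21337376 for BCH2 and chr1:16851272-16851521 for CAO.
BCH2: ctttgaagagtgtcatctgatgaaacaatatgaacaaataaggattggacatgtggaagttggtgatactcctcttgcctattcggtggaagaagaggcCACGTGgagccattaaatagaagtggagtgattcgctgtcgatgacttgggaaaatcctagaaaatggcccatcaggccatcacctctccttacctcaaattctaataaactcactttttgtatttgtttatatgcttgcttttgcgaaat
CAO: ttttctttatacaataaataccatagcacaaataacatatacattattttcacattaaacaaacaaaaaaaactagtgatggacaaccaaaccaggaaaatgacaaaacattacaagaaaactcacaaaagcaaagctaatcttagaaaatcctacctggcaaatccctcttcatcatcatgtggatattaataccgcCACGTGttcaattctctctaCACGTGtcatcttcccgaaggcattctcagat
No comparison of responses is drawn from this pair. A match is a description of the letters and not a site of binding.

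Genes around the pathway were read from 6 lists with 58 genes, all chosen with earlier results of these data known, and their counts at 3 h stand beside 24.5% higher and 26% lower of all genes in agb1 and 29.4% higher and 29.1% lower in WT. In the heme branch at 3 h the 2 ferrochelatases, which insert iron into protoporphyrin IX, moved apart: FC1, the isoform known for stress and non-green tissue, rose by 1.06 ± 0.13 in agb1 and 1.28 ± 0.13 in WT, and FC2, the chloroplast isoform, fell by 1.02 ± 0.10 in agb1 and 1.24 ± 0.10 in WT. FC1 is named after its values were seen, while FC2 and HO2 had the smallest p of the list. HO2, of the heme oxygenase family, fell by 1.32 ± 0.13 in agb1 and 1.46 ± 0.13 in WT. In all, 1 of 7 tested genes of that list rose and 2 fell in each genotype. FC1 had 131, 133 and 153 CPM in agb1 with NAE against 57.3, 59.8 and 82.9 CPM in agb1 with DMSO, and 137, 138 and 131 CPM in WT with NAE against 53.0, 55.4 and 58.7 CPM in WT with DMSO.

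Of the 11 genes of the chlorophyll cycle and breakdown, 5 rose and 1 fell in agb1, and 6 rose and 2 fell in WT, against 50.5% of all genes called in agb1 and 58.5% in WT. CLH1, a chlorophyllase, rose by 2.59 ± 0.15 in agb1 and 2.03 ± 0.15 in WT, and PAO, pheophorbide a oxygenase, rose by 1.12 ± 0.14 in agb1 and 1.05 ± 0.14 in WT (log2). SGRL, of the STAY-GREEN family of chlorophyll breakdown proteins, fell by 1.14 ± 0.15 in agb1 and 1.57 ± 0.16 in WT (log2, edgeR adjusted p = 3.25e-05 and 1.35e-06). Of the 10 tested further carotenoid genes 3 fell in agb1 and 5 in WT, with CCD4, a carotenoid cleavage dioxygenase, falling by 2.41 ± 0.39 in agb1 and 3.09 ± 0.39 in WT. Of 9 tested isoprenoid supply genes 1 rose and 1 fell in agb1, and 3 rose and 3 fell in WT, so in agb1 fewer than the share of all genes. Of 6 tested minor isoforms and assembly factors 1 fell in agb1 and 4 in WT, among them LIL3.1, a light-harvesting-like protein that binds geranylgeranyl reductase, by 0.48 ± 0.10 in agb1 and 0.83 ± 0.10 in WT.

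Of 11 regulators of pigment genes none rose and 7 fell in agb1, and 1 rose and 8 fell in WT at 3 h, where 26% of all genes fell in agb1 and 29.1% in WT. In agb1 GLK2 and PIF1 had the smallest p of this list, and PIF1, of the PIF factors, changed by -2.11 ± 0.23 (log2, edgeR adjusted p = 6.41e-06). GLK2, a transcription factor of chloroplast development, fell by 1.90 ± 0.15 in agb1 and 1.85 ± 0.15 in WT. GLK1, its paralog, averaged 32.9 ± 2.54 CPM in agb1 with NAE, 56.5 ± 2.85 CPM in WT with NAE, 47.9 ± 4.69 CPM in agb1 with DMSO and 171 ± 11.8 CPM in WT with DMSO (SD, n = 3 each). Its NAE effect differed between genotypes by 1.05 ± 0.14 (log2, edgeR adjusted p = 0.00337), and WT with DMSO was again the group that stood apart, as for PORC and CHLH.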

How the data were processed

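Poly(A) RNA of 24 libraries in 8 groups of 3 was sequenced in read pairs, per the labels' protocols. STAR, TAIR10 and DESeq2 are named without versions in the submitters' processing notes, and the counting tool, strand setting and annotation are not given in the sources used here. The authors deposited raw counts per locus in 1 table for each time point, and size-factor normalized values (a signal) that equal the counts times 1 factor per library within 0.01 reads in all 24 libraries. The deposited counts were used for every result.

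Genes with too few counts were removed with filterByExpr by group (minimum count 10, minimum total 15). Differences were tested with edgeR 4.0.16 in R 4.3.3 (robust quasi-likelihood F test, TMM), in 1 fit of 12 libraries per time point, and in 1 fit of 24 libraries for 3 h minus 1 h. P-values were adjusted by Benjamini-Hochberg over all genes tested (21255 at 1 h, 20672 at 3 h, 21700 in the joint fit). The SE is the log2 fold change divided by the square root of F. Alternatives were DESeq2 1.42.0, its size factors, other filters, a replicate block, an exon length offset, the 6 libraries compared alone, and leaving out each library. The fits were tested on simulated data, with changes of 1.5, 2 or 4 fold put into 66 or 67 genes each. These were drawn at random from all genes tested, whatever their counts. The share of genes changed differs from the share called in the data, so the recovery rates are not those of the members. Contrasting NAE responses between agb1 and WT at 3 h recovered 8.96% of 1.5-fold, 35.8% of 2-fold and 84.8% of 4-fold changes. At 1 h that contrast recovered 32.8%, 73.1% and 90.9%. For NAE against DMSO in WT at 3 h, 25.4%, 58.2% and 92.4% were recovered. A gene without a call may therefore still have changed. Exon lengths, positions and upstream bases came from RefSeq TAIR10.1, which gave a length for 32548 of 32833 loci.

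The members and gene lists were chosen with earlier results of these data known. All members are accounted for. Values per library are given for HEMA1, CHLH, PORA, PORB, PORC, PSY and VDE and for up to 8 called members with the smallest p per comparison, and 2 called genes with the smallest p per companion list were eligible to be named. Upstream sequences of members other than BCH2 and CAO are not reported here.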

Additional observations from a re-analysis of the deposited data

Results flagged for a closer look

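The NAE effect at 3 h differed between agb1 and WT by a test of the difference itself for PORB (0.86 ± 0.21, adjusted p = 0.0479), PORC (0.73 ± 0.16, adjusted p = 0.0273) and BCH2 (-1.97 ± 0.39, adjusted p = 0.0216), on the log2 scale and by edgeR. Of 19 alternative fits, the call was kept in 8 for PORB, 15 for PORC and 16 for BCH2.

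The NAE effect of some members also differed between the time points, as the effect at 3 h minus that at 1 h (log2, edgeR, adjusted p under 0.05). In agb1 34.2% of members were called, near the 34.5% of all genes, and in WT 57.9% against 48%. In agb1 the difference was positive for HEMA1 (0.37) and HEMA2 (1.10). It was negative in agb1 for the chelatase subunits CHLI1 (-0.49) and CHLI2 (-0.73), and for CHLM (-0.41), CRD1 (-0.46), DVR (-0.65) and PORC (-0.64). Among carotenoid genes in agb1 it was negative for PSY (-0.90), ZDS (-0.35), CRTISO (-0.34), LCYE (-0.78) and ZEP (-0.70). CHLH in agb1 was not called in this fit. It was called lower by DESeq2 (-0.57, adjusted p = 0.0422) and with an exon length offset (-0.55, edgeR adjusted p = 0.0209).

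In WT the difference was positive for HEMA2 (1.37) and BCH2 (2.60). It was negative in WT for HEMC (-0.38) and HEME2 (-0.52), and for the chelatase subunits CHLH (-1.38), CHLI1 (-0.56), CHLI2 (-0.84) and CHLD (-0.39). From magnesium protoporphyrin onwards it was negative in WT for CHLM (-0.81), CRD1 (-0.78), DVR (-0.90), PORB (-1.02), PORC (-1.28), CHLG (-0.42), CHLP (-0.42) and CAO (-0.75). Among carotenoid genes in WT it was negative for PSY (-1.01), ZDS (-0.44), CRTISO (-0.44), LCYB (-0.38), LCYE (-1.33) and ZEP (-0.68).

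Several of these differences between times were not called in part of the 31 alternative fits. In agb1 the ZDS call (adjusted p = 0.0498) was kept in 6 of 31 and was lost with an exon length offset (adjusted p = 0.0692), with RLE scaling (adjusted p = 0.0537) and in 20 omissions of a single library (adjusted p 0.0523 to 0.150). In agb1 ZEP was kept in 27, HEMA1 in 26, and CHLM and CRD1 in 24 each. In WT LCYB was kept in 17 and CHLD in 19, and both were lost with an exon length offset (adjusted p = 0.0806 and 0.170), while ZEP was kept in 27 and CHLP in 28.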

How the results depend on the processing

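No call changed sign under any alternative run. DESeq2 called 10 members between the genotypes at 1 h under DMSO, in place of 5, and 5 for the difference of the NAE effect between genotypes at 3 h, in place of 3. For agb1 against WT with NAE at 1 h, 2 members in place of 4 were called with a filter at a mean of 5 CPM, and 2 with the 6 compared libraries alone. Leaving out 1 library at a time, called members numbered 1 to 2 for NAE in agb1 and 1 to 3 in WT at 1 h, and 14 to 19 in agb1 and 23 to 30 in WT at 3 h. The difference between genotypes gave 0 to 0 at 1 h and 0 to 5 at 3 h. For agb1 against WT at 1 h the counts were 1 to 5 with NAE and 0 to 6 with DMSO, and at 3 h 3 to 8 with NAE and 15 to 21 with DMSO. The difference of 3 h minus 1 h gave 9 to 14 in agb1 and 18 to 28 in WT.

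Libraries with the same replicate number did not deviate together as a set, though some pairs did. Their correlations ran from -0.168 to 0.152 at 1 h and from -0.125 to 0.236 at 3 h, with 3 of 18 over 0.1 at each time. Of pairs with different numbers, 1 of 36 at 1 h and 3 of 36 at 3 h were over 0.1. Medians were 0.0247 at 1 h and -0.042 at 3 h for the same number, against 0.02465 and 0.0124 for different numbers. With a replicate block, members called for NAE were 1 in agb1 and 1 in WT at 1 h, and 19 in agb1 and 25 in WT at 3 h. For the difference between genotypes the block gave 0 at 1 h and 2 at 3 h, where PORB had an adjusted p of 0.0671. For agb1 against WT it gave 4 with NAE and 6 with DMSO at 1 h, and 6 with NAE and 18 with DMSO at 3 h. For 3 h minus 1 h it gave 12 in agb1 and 20 in WT. The other calls lost under the block were VDE for NAE in WT at 3 h (adjusted p = 0.0582), CHLD for agb1 against WT with DMSO at 3 h (adjusted p = 0.0676), PSY with NAE at 3 h (adjusted p = 0.0527), PPOX2 with DMSO at 1 h (adjusted p = 0.0517), and for 3 h minus 1 h ZDS in agb1 (adjusted p = 0.0713) and CHLD and LCYB in WT (adjusted p = 0.0576 and 0.0553). Low counts limit what can be said of PORA, with 6 to 232 counts per library.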
